A study of Temnothorax rugatulus with 32 samples.

Results

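Each queen in this study gave a brain and a fat body, and the comparison described here is the difference between those tissues in their age difference: for every contig, the log2 difference between old and young queens in fat body minus the log2 difference between old and young queens in brain. A positive value means that the old-to-young ratio was larger in fat body than in brain. All 32 of the 32 libraries of the study enter it, sorted into 4 groups of 8 by the age and the tissue in their labels: old fat body, young fat body, old brain and young brain. The 16 queens of the ant Temnothorax rugatulus were collected in the field, 8 of them labelled Old and 8 Young, with no age in years, no treatment and no genotype given. Queens are named here by O or Y for the age class and the number in the label. Both libraries of a number come from 1 individual, so each queen supplies its own fat body to brain ratio, and 8 old ratios are compared with 8 young ones. Within a tissue every library is from a separate queen, so the spread is a spread between animals.

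The fat body is the insect organ of storage, intermediary metabolism and secretion into the blood, and it makes yolk protein, blood lipid carriers, transferrin and immune proteins. The brain is built of neurons and glia that live long and divide little. Ant queens outlive their workers by a wide margin, and the study asked how expression in these tissues shifts with queen age.

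Total counts ranged from 13861667 to 33461227 per library. Contigs are transcripts of an assembly made without a genome; a shared first part of the contig name marks 1 assembly component, and reads can be split between its contigs. Protein names come from the best database hits in the authors' deposited age tables, which describe 737 of the 48253 contigs tested. The authors chose those contigs on age in these same libraries, so their direction in fat body or brain is not independent evidence. Levels are given in CPM, counts relative to a library total scaled by the trimmed mean of M-values (TMM), which corrects for a few abundant transcripts taking a large share of a library. The TMM factors were 0.578 to 0.956 in fat bodies and 1.34 to 1.58 in brains. The 200 contigs most enriched in brain took 2.45% to 3.48% of the counts of brains and 0.00224% to 0.0808% of those of fat bodies, with the highest fat body shares in O482 (0.0808%) and O269 (0.0222%). The 200 contigs most enriched in fat body took 10.4% to 30.1% in fat bodies and 0.0545% to 1.62% in brains, with the highest brain share in Y361 (1.62%). These 3 queens stand apart by counts of the other tissue, and results that rest on them are given with and without them.

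An age difference that differed between the tissues passed the threshold for 2 of 48253 contigs when the queen was a block, which is 0.00414% of those tested (edgeR quasi-likelihood test, Benjamini-Hochberg adjusted p under 0.05). An uncharacterized ant protein was the 1 contig (0.00207%) with a positive difference, higher in old than young fat bodies with overlapping brains. Rab-32 was the 1 contig (0.00207%) with a negative difference, lower in old than young fat bodies with overlapping brains. At an unadjusted p under 0.05 stood 3369 contigs (6.98%), and 53 had an adjusted p under 0.1, of which 49 had a positive difference and 4 a negative one. Without the queen term, 109 contigs passed (0.226%), 89 of them positive (0.184%) and 20 negative (0.0414%). The count with the queen as a block was 36 without queen O426, 14 without Y333, 4 without O482 and 3 without Y453. It was 1 when any 1 of these queens was left out: O189, O269, O469, O603, O796, O829, Y134, Y503, Y594 and Y651. It was 2 without Y102, 1 positive and 1 negative, and 2 without Y361, both positive and Rab-32 not among them. The count without the queen term ran from 47 to 114 and moved by more than 1.5 times without O269 (60), O469 (64), O603 (47), O796 (58), Y134 (63), Y361 (70), Y503 (63) and Y594 (51).

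**Figure D1:**
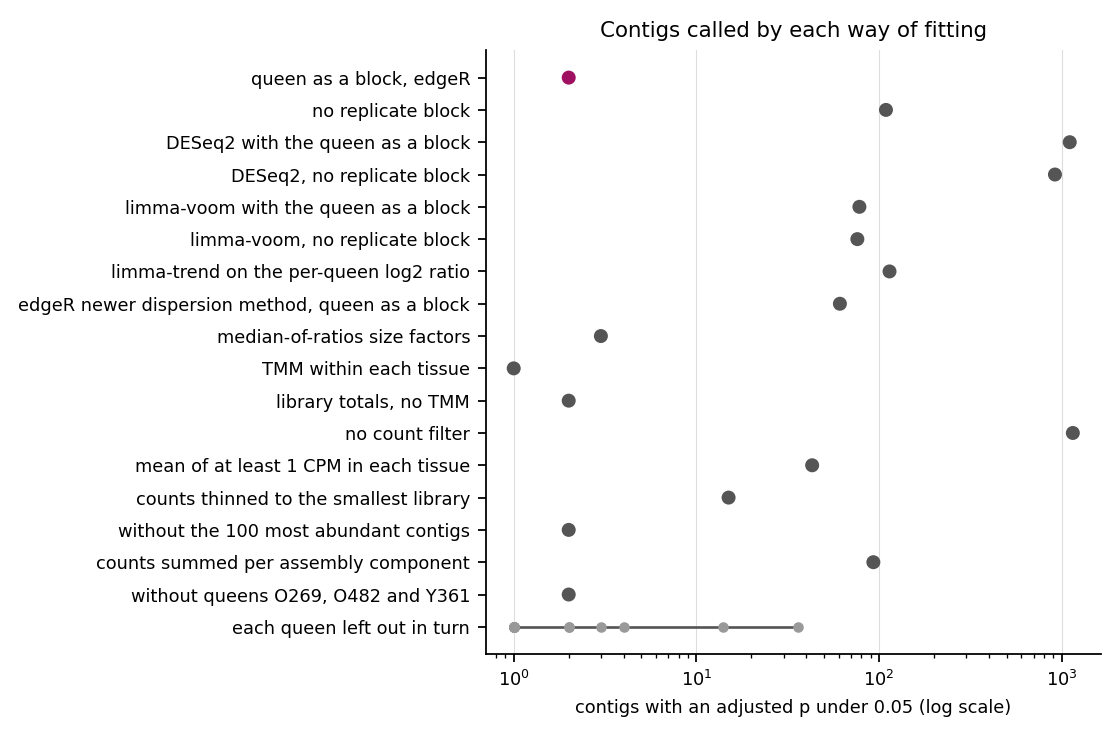
Number of contigs with an adjusted p under 0.05 (log scale) for the difference between tissues in the age difference, by way of fitting; the bottom line spans the fits that leave out 1 queen each. Counts run from 1 to 1149, with 2 for edgeR with the queen as a block and 109 for edgeR without the queen term.

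The contig named uncharacterized protein LOC108756522, after its hit in the fungus-growing ant Trachymyrmex septentrionalis, stood at 200.4, 252 and 323 CPM (lowest, median and highest of 8 queens) in old fat bodies. In young fat bodies it stood at 25.4, 43.4 and 70 CPM. Old brains held 30.4, 36.3 and 41.6 CPM, and young brains 31.2, 34 and 40.8 CPM. All 8 old fat bodies lay above all 8 young ones, while the brains of both ages overlapped and lay in the range of the young fat bodies. Its log2 ratio of fat body to brain averaged 2.79 ± 0.33 (SD, n = 8) in old queens and 0.24 ± 0.49 in young queens, with no overlap. The age difference was 2.57 ± 0.21 (SE) in fat body and 0.079 ± 0.086 in brain, and the difference between tissues was 2.55 ± 0.22 with an adjusted p of 0.00015 (edgeR). It passed in all 16 fits that left out 1 queen, at 2.47 to 2.68, and without O269, O482 and Y361 it stood at 2.51 (adjusted p = 0.01). The protein's role is not annotated in the files.

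Rab-32, a small GTPase that in flies and mammals directs traffic to lysosome-related organelles, ran the other way. Old fat bodies held 6.27, 9.02 and 17 CPM and young fat bodies 20.1 CPM at the lowest, 64.6 CPM at the median and just over 100 CPM at the highest. Old brains held 2.43, 5.01 and 8.75 CPM and young brains 2.8, 6.88 and 9.96 CPM. No old fat body reached the lowest young one, and the brains overlapped almost entirely. The log2 ratio of fat body to brain was 1.07 ± 0.6 (SD, n = 8) in old and 3.17 ± 0.45 in young queens, and the ratios did not overlap. Its difference between tissues was -2.09 ± 0.29 (SE; edgeR adjusted p = 0.037), from -2.56 ± 0.34 in fat body and -0.42 ± 0.26 in brain. The call was lost in 12 of the 16 fits without 1 queen (adjusted p up to 0.11), held without O426, O482, Y102 or Y333, and the value stayed between -1.95 and -2.21. Summed over the 2 contigs of its component, Rab-32 had a difference of -1.27 (adjusted p = 0.12), and without O269, O482 and Y361 the contig had -1.89 (adjusted p = 0.19).

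**Figure D2:**
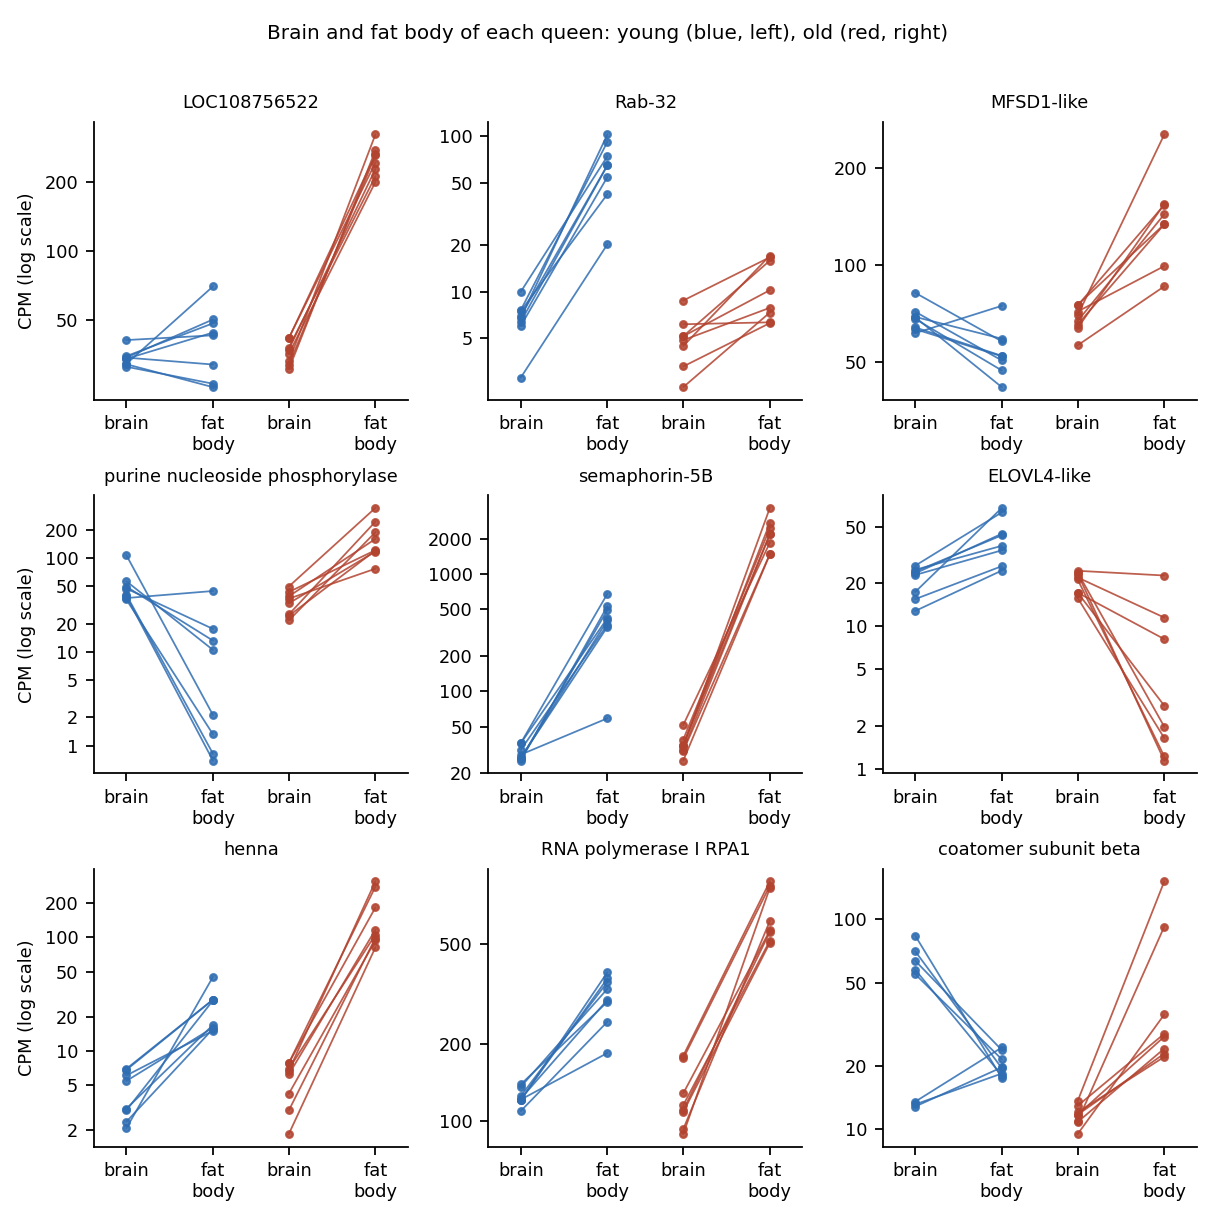
CPM (log scale) of 9 contigs in the brain and fat body of each queen, with a line joining the tissues of 1 queen; young queens are blue and on the left of each panel, old queens red and on the right. For LOC108756522 the lines of the 8 old queens rise to 200.4 CPM or more while those of young queens end at 70 CPM or less, and for Rab-32 the young fat bodies lie above all old ones.

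Among the contigs that differed between the tissues without the queen term, the age difference was larger in fat body in 103 of 109 (94.5%) and larger in brain in 6. It was larger in fat body in 67.2% of all contigs tested and in 92.9% of those with a protein name. Their median absolute age difference was 2.8 on the log2 scale in fat body and 0.18 in brain, and 87 of them (79.8%) had less than 0.5 in brain, as did 72% of all contigs tested. Over all 48253 contigs the same medians were 0.52 and 0.25, and over the 21511 contigs with a mean of 1 CPM or more in each tissue they were 0.36 and 0.18. Age differences beyond 1 on the log2 scale were found for 3315 of those 21511 contigs in fat body and 1517 in brain. Fat body libraries also varied more within a group: the median SD of log2 CPM over 19435 contigs was 0.68 in old and 0.75 in young fat bodies, against 0.48 in old and 0.43 in young brains. Within a tissue, the age difference passed for 84 contigs in fat body (0.174%), 65 higher and 19 lower in old queens. In brain 0 passed in edgeR, with 2658 (5.51%) at an unadjusted p under 0.05; 1 fit over the 4 groups called 2135 contigs for fat body and 4 for brain. Whether brain age differences as a whole are smaller was not tested.

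**Figure D3:**
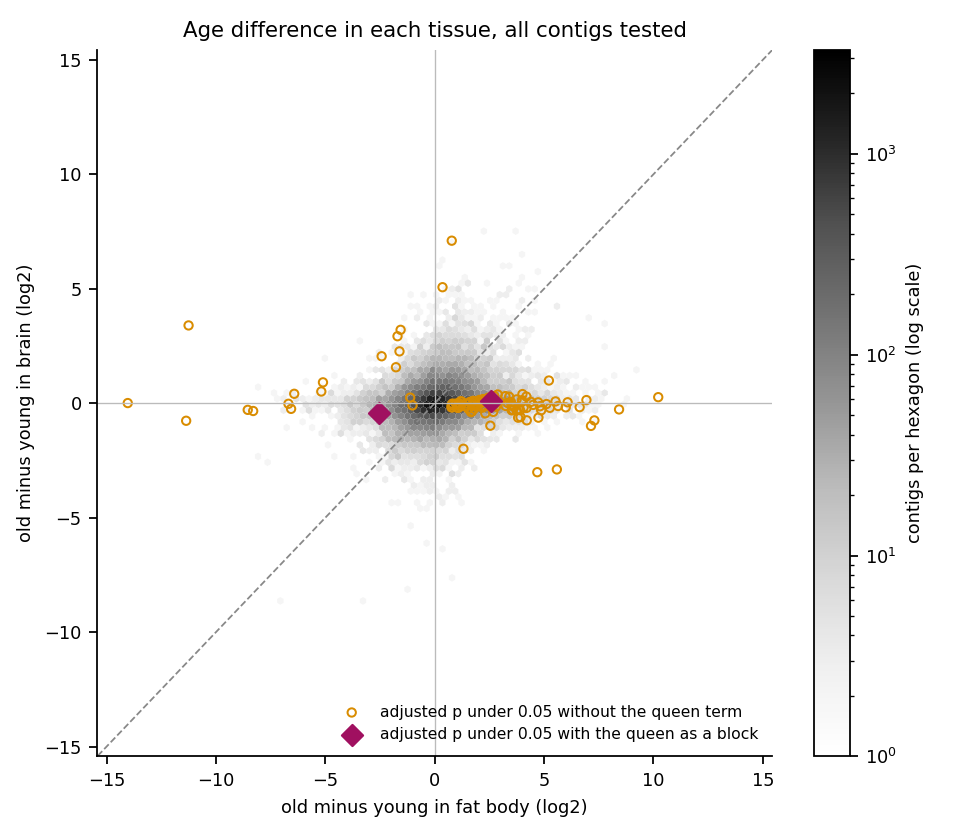
Age difference (log2, old minus young) of all 48253 contigs tested in fat body (horizontal) and in brain (vertical), with grey for the number of contigs per hexagon on a log scale; the dashed line marks equal age differences. The 109 contigs called without the queen term (open circles) lie mostly along the horizontal axis, where brain differences are near 0, and diamonds mark the 2 contigs called with the queen as a block.

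The tissue of higher expression differed between the ages for some of these contigs. Among the 109, the mean ratio of fat body to brain had opposite signs in young and old queens in 28 (25.7%), against 5728 (11.9%) of all contigs tested. In 21 of the 28, brain was the higher tissue in young queens and fat body in old queens, and in 7 it was the reverse. A set of 40 contigs was called by edgeR without the queen term, by the newer dispersion method of edgeR with the queen as a block (61 calls, 0.126%) and by limma-voom with that block (78 calls, 0.162%). Of these 40, 38 were positive and 14 had a different higher tissue in the 2 ages, which was fat body in old queens for 13 of them. This choice of contigs uses the same contrast, so the shares describe them and are not a test. Across all contigs the ratios of the 8 old and 8 young queens did not overlap for 84 contigs (0.174%), 69 with old above young (0.143%) and 15 with old below (0.0311%).

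Next in order of p came contigs that did not pass with the queen as a block, and their values are given as such. With O269, O482 and Y361 left out, 2 of 50323 contigs passed, LOC108756522 and semaphorin-5B. None of the other contigs named below passed in that fit, which has fewer queens. A contig named major facilitator superfamily domain-containing protein 1-like, a lysosomal solute transporter in mammals, stood at 85.9, 139 and 255 CPM in old fat bodies and 41.7, 52.1 and 74.7 CPM in young ones. Brains held 56.3, 68.4 and 75.2 CPM in old queens and 61.4, 68.4 and 82 CPM in young ones. Old fat bodies lay above all young ones, brains had the same median, and the ratio of fat body to brain was positive in all old queens (0.47 to 1.87) and centred below 0 in young ones (-0.35 ± 0.3, SD, n = 8). Its difference between tissues was 1.38 ± 0.2 (SE; edgeR adjusted p = 0.05, just above the threshold, and 0.003 without the queen term), and 1.44 (adjusted p = 0.21) without O269, O482 and Y361. A contig with no description, TR67699c1_g3_i1, lay beside it, with a difference of 1 ± 0.15 (adjusted p = 0.05, just above), but the sum of the 8 contigs of its component had 0.028 (adjusted p = 0.97). TR73546c1_g1_i8, also with no description, held 0 to 0.198 CPM in old and 0.662 to 622 CPM in young fat bodies, and 0 to 2.07 CPM in brains. Its difference was -12.66 ± 2.14 (edgeR adjusted p = 0.057, and 0.00039 without the queen term). The sum of the 8 contigs of that component had -2.32 (adjusted p = 0.13). TR42847c0_g1_i3, with no description either, had -1.84 ± 0.38 (adjusted p = 0.13).

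Purine nucleoside phosphorylase, which splits nucleosides into base and sugar phosphate in purine salvage, had a different order of the tissues in the 2 ages. In young queens it stood at 0.691, 6.33 and 44.7 CPM in fat body and 36.3, 44.2 and 108 CPM in brain. In old queens it stood at 77.4, 142 and 345 CPM in fat body and 21.7, 35 and 49.9 CPM in brain. Brain was higher in 7 of 8 young queens and fat body in all old queens: the log2 ratio ran from -5.68 to 0.25 in young and from 1.06 to 3.29 in old queens. The difference was 5.69 ± 0.9 (edgeR adjusted p = 0.057, and 0.013 without the queen term). Without O269, O482 and Y361 it was 5.32 (adjusted p = 0.32). A second contig of the component, named purine nucleoside phosphorylase-like, had 5.99 ± 1 (adjusted p = 0.057), and the sum of the 4 contigs of the component had 5.57 (adjusted p = 0.0082; 93 of 25632 component sums passed, 0.363%). These contigs are pieces of 1 component and may not be separate genes.

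Leukotriene A-4 hydrolase, an aminopeptidase that in mammals also makes a leukotriene, was mainly a brain transcript, at 74.5 to 109.8 CPM in the brains of old queens against 72.7 to 101 CPM in those of young queens. Its fat body level was 13.8, 16.6 and 21.6 CPM in old queens and 3.44, 7.88 and 9.56 CPM in young ones, with no overlap. The levels of the tissues thus lay closer in old queens, with a difference between tissues of 1.21 ± 0.2 (edgeR adjusted p = 0.057; 0.016 without the queen term). The elongation of very long chain fatty acids protein 4-like contig, an enzyme that lengthens fatty acids, held 1.14, 2.37 and 22.7 CPM in the fat bodies of old queens against 24.6, 40.1 and 67.7 CPM in those of young queens. Brains held 15.8 to 24.5 CPM in old queens and 12.8 to 26.6 CPM in young ones, in the same range. Fat body was the higher tissue in every young queen (ratio 0.56 to 1.95) and the lower in every old queen (-4.26 to -0.11). Its difference of -3.5 ± 0.59 did not pass with or without the queen term (adjusted p = 0.057 and 0.058), while the sum of the 12 contigs of its component had -3.2 (adjusted p = 0.0062).

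The gene lists below were matched on words in the protein names, and their divisions by member were made after the values were seen. Of this described set, which the authors selected for age, 59.3% of the contigs with a protein name had an unadjusted p under 0.05 with the queen as a block, against 6.98% of all contigs tested, and 5.89% of them were called higher without the queen term. Counts for a list are to be read against these shares.

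Semaphorin-5B and laminin subunit beta-1 belong to the extracellular matrix and guidance list: semaphorins are guidance cues known from growing axons, and laminins build basement membranes. Semaphorin-5B stood at 1476, 2194 and 3675 CPM in old fat bodies and 58.8, 412 and 680.4 CPM in young ones. Brains held 25.6, 34.2 and 51.5 CPM in old queens and 25.6, 27.9 and 36.1 CPM in young ones. Every old fat body exceeded every young one, while brains overlapped. The difference was 2.33 ± 0.39 (edgeR adjusted p = 0.057; 0.0076 without the queen term), and without O269, O482 and Y361 it was 1.97 and passed (adjusted p = 0.014). Laminin subunit beta-1 held 193, 337 and 828 CPM in the fat bodies of old queens against 73.5, 127 and 171 CPM in those of young queens, and 12.1 to 36.7 CPM in brains of old and 14 to 30.7 CPM in brains of young queens (1.48 ± 0.27, adjusted p = 0.059). Of the 7 contigs of this list that were tested, 0 passed with the queen as a block, 4 were positive and 3 negative, and the median was 0.49; without the queen term 6 were positive. At an unadjusted p under 0.05 stood 3 positive and 1 negative contigs (57.1%), and limma-voom and the newer edgeR method with the queen as a block each called 2.

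Amino acid and one-carbon metabolism had 11 contigs tested, of which 0 passed with the queen as a block and 5 passed without the queen term, all 5 higher, where 0.184% of all contigs and 5.89% of those with a protein name were called higher. All 11 differences were positive with a median of 1.89, beside 56% positive and a median of 0.12 over all contigs tested; with library totals in place of TMM, 10 of 11 were positive. With the queen as a block 10 (90.9%) had an unadjusted p under 0.05, and limma-voom and the newer edgeR method each called 4, all higher. The list holds 6 contigs of S-adenosylmethionine synthase, the enzyme that makes the methyl donor of the cell, from 4 components, and also a kinase and a phosphatase (Btk29A and phosphatase 99A) that act on tyrosine in proteins and are no metabolic enzymes. The 5 that passed without the queen term were protein henna and contigs of the synthase, most of them from component TR67145c2. They are therefore not 5 separate genes. Contig TR67145c2_g3_i4 of the synthase held 93.4, 180.3 and 283 CPM in the fat bodies of old queens against 24.9, 67.1 and 104 CPM in those of young queens, with 105 to 166 CPM in the brains of old queens against 107 to 178 CPM in those of young queens. Young fat bodies thus lay below the brains and old fat bodies around them (difference 1.5 ± 0.27, edgeR adjusted p = 0.059; 0.038 without the queen term). Protein henna is phenylalanine hydroxylase, which turns phenylalanine into tyrosine, and held 81.8, 112 and 313 CPM in the fat bodies of old queens against 15, 22.4 and 44.9 CPM in those of young queens. In brains it held 1.84, 6.42 and 7.79 CPM in old queens and 2.07, 4.25 and 6.92 CPM in young ones. All old fat bodies exceeded the young ones and the brains overlapped; 6 of 8 old ratios lay above the highest young ratio (2.36 ± 0.41, adjusted p = 0.057; 0.025 without the queen term).

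Transporters were the list with the most contigs called without the queen term, 8 of 30, all higher, beside 5.89% of contigs with a protein name; 0 passed with the queen as a block in edgeR, 6 in limma-voom and 6 with the newer edgeR method, and 19 positive and 3 negative ones (73.3%, against 59.3% of contigs with a protein name) had an unadjusted p under 0.05. Of the 30, 25 were positive and 5 negative, and the median was 1.71 (23 positive and 7 negative with library totals). Facilitated trehalose transporter Tret1-2 homolog, a carrier of the main insect blood sugar, held 136, 210.5 and 1390.1 CPM in the fat bodies of old queens against 3.28, 16.5 and 95.5 CPM in those of young queens. Its brain levels were 4.39, 5.91 and 14.3 CPM in old queens and 4.6, 6.42 and 7.27 CPM in young ones. Old and young fat bodies did not overlap, brains did, and the difference was 3.77 ± 0.78 (edgeR adjusted p = 0.13; 0.041 without the queen term). An organic cation transporter protein-like contig, TR72669c0_g1_i5, was near 0 in brains (0 to 0.708 CPM) and held 7.61 to 51.1 CPM in the fat bodies of old queens against 0 to 2.71 CPM in those of young queens (9.62 ± 1.6, adjusted p = 0.057). With brains this low its fitted value depends on the prior count, and the sum of the 7 contigs of the component had 4.23 (adjusted p = 0.0082). Chosen after their values were seen, choline transporter-like protein 1 contig TR73724c0_g1_i1 had 1.94 ± 0.35 and a solute carrier family 2 glucose transporter 3.68 ± 0.67 (adjusted p = 0.059 for both, and 0.0076 and 0.016 without the queen term). The other choline transporter-like protein 1 contig, TR73724c0_g1_i2, had 0.96 ± 0.32 (edgeR adjusted p = 0.54, and 0.32 without the queen term). The excitatory amino acid transporter-like contig TR66303c0_g1_i1, which clears glutamate in glia and served as the glia marker, was also chosen after its values were seen and had -0.73 ± 0.22 (adjusted p = 0.45).

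**Figure D4:**
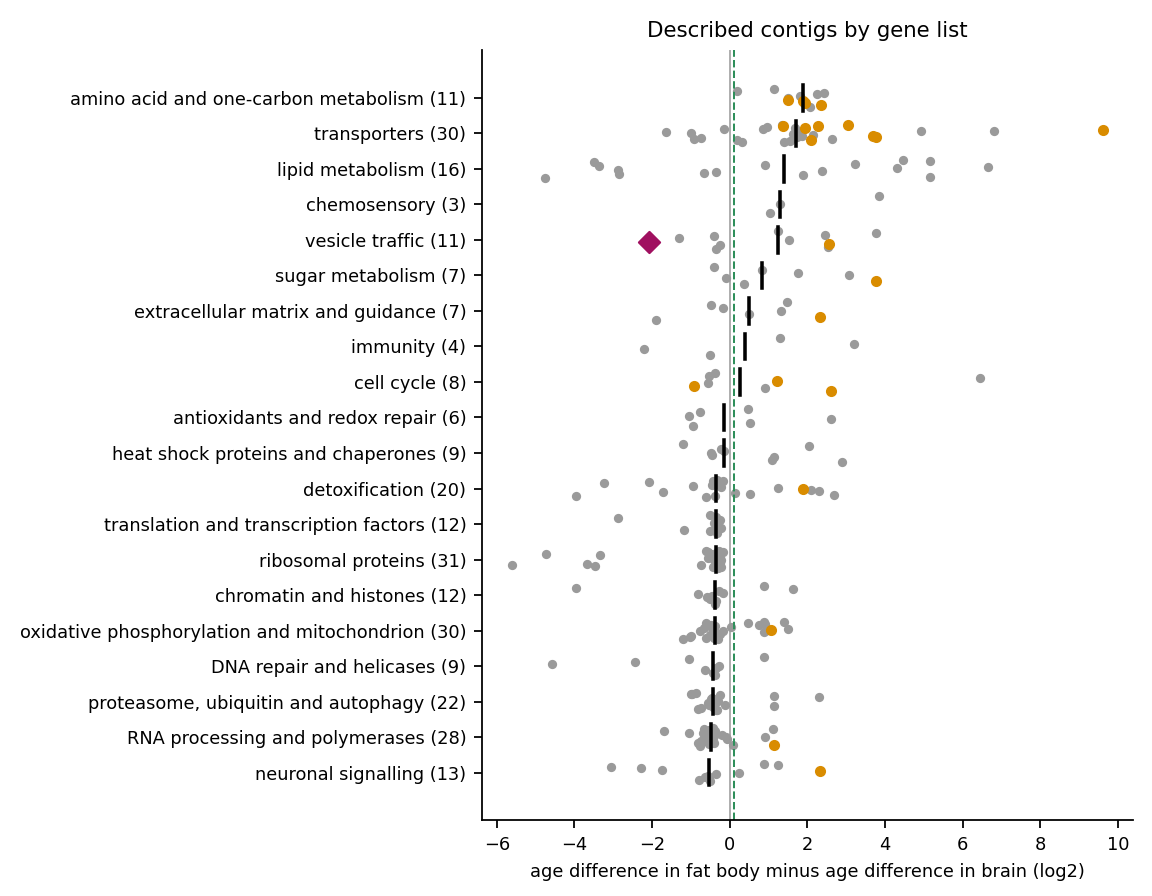
Difference between fat body and brain in the age difference (log2) for the described contigs of each gene list, with the number tested in parentheses; each point is 1 contig, the black bar is the list's median and the dashed green line the median of all contigs tested, 0.12. Orange points passed only without the queen term and the diamond, Rab-32, also with the queen as a block; the medians of transporters and of amino acid metabolism lie near 1.7 and 1.9, and all 31 ribosomal protein contigs lie below 0, the 5 beyond -3 with best hits outside ants, bees and wasps.

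Genes of protein synthesis and turnover had mostly small negative differences, of which 0 passed in edgeR with or without the queen term, in limma-voom or with the newer edgeR method. All 31 ribosomal protein contigs were negative with a median of -0.35, from 2 patterns. The 25 with their best hit in ants, bees and wasps had negative age differences in both tissues, -0.92 to -0.41 in fat body and -0.71 to -0.01 in brain, and a median difference between tissues of -0.32. The other 6, with hits in a fruit fly and a horseshoe crab, averaged no more than 1.58 CPM in any group and had positive age differences in both tissues, 0.57 to 4.81 in fat body and 4.19 to 6.57 in brain. The list of initiation and elongation factors held 12 contigs, all negative (median -0.35): 7 are translation factors and 5 are factors of transcription (TFIID, TFIIE and transcription elongation factors). Of the proteasome, ubiquitin and autophagy list, 19 of 22 were negative (-0.44). An unadjusted p under 0.05 was reached by 10 ribosomal protein contigs (32.3%), by 2 translation and 2 transcription factors, all negative, and in the turnover list by 2 positive and 9 negative contigs (50%), which in each list is below the 59.3% of contigs with a protein name. In each of these lists the same counts of signs held without the queen term. They also held with library totals, but these lowered the median of all contigs from 0.12 to -0.21. A negative contig could thus hardly change sign there, and those counts are no check on the negative ones. Eukaryotic initiation factor 4A-III, an RNA helicase of the exon junction complex, stood at 56.5, 66.3 and 80.7 CPM in the fat bodies of old queens against 86.5, 103 and 148 CPM in those of young queens, and 48.4 to 71.5 CPM in the brains of old queens against 57.1 to 74.3 CPM in those of young queens (-0.51 ± 0.18, adjusted p = 0.58). 28S ribosomal protein S29 of the mitochondrion had -0.6 ± 0.18 (adjusted p = 0.43). Against that direction stood RPA1, the main catalytic subunit of the polymerase for ribosomal RNA: it held 505, 591 and 884 CPM in the fat bodies of old queens against 185, 316 and 386 CPM in those of young queens, and 88.4 to 180.4 CPM in the brains of old queens against 109 to 139 CPM in those of young queens. Old fat bodies lay above all young ones, and the difference was 1.14 ± 0.19 (adjusted p = 0.057; 0.027 without the queen term). The described contigs as a whole leaned the same way as the ribosomal list, with 39.9% of contigs with a protein name positive and a median of -0.31.

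RNA processing had 28 contigs tested, 24 negative, with a median of -0.48; 11 of them are subunits or factors of RNA polymerases and mediator, RPA1 among them. Of the 28, 71.4% had an unadjusted p under 0.05 and 0 passed with the queen as a block in edgeR, while limma-voom and the newer edgeR method each called 1. Chromatin and histones had 12, 10 of them negative (-0.38). The splicing factor U2af 38 kDa subunit-like, which reads the end of introns, held 44 to 54.3 CPM in the fat bodies of old queens against 58.9 to 81.5 CPM in those of young queens and overlapped in brains (-0.52 ± 0.15, edgeR adjusted p = 0.41). Lysine-specific histone demethylase 1 homolog 3-like had 1.64 ± 0.36 (adjusted p = 0.19) and the corepressor subunit SDS3 -0.83 ± 0.22 (adjusted p = 0.34). The list of DNA repair and helicases had 8 of 9 contigs negative, with a median of -0.44. Of the 9, 6 are RNA helicases, all negative, and 1 is the chromatin remodeller CHD7, at 0.88; the other 2 are alkylated DNA repair protein alkB homolog 8, at -0.37, and the DNA helicase PIF1-like. The last, at -4.59 ± 0.79 (adjusted p = 0.057), reached no more than 4.86 CPM in any library. Oxidative phosphorylation and mitochondrion had 20 of 30 negative (-0.39). Most of its contigs are other mitochondrial proteins and not parts of oxidative phosphorylation. Its mitochondrial ribosomal proteins, all negative, are also counted in the ribosomal list, and its poly(A) RNA polymerase in RNA processing. These lists are therefore not independent. There the import channel subunit Tim23 had -1.02 ± 0.21 (adjusted p = 0.13) and methylmalonate-semialdehyde dehydrogenase, which breaks down valine, 1.07 ± 0.22 (adjusted p = 0.12; 0.047 without the queen term).

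Lipid metabolism held both large positive and large negative differences, 9 and 7 of 16 contigs, with a median of 1.4. With the queen as a block 0 passed in edgeR, 6 in limma-voom and 2 with the newer edgeR method, and 6 positive and 5 negative ones (68.8%, against 59.3% of contigs with a protein name) had an unadjusted p under 0.05. ABHD12, a lipase of monoacylglycerols and lysophospholipids in mammals, held 10.6, 25.4 and 38.5 CPM in the fat bodies of old queens against 0.223, 3.78 and 14 CPM in those of young queens, while brains of both ages lay between 0.682 and 4.18 CPM (3.22 ± 0.65, edgeR adjusted p = 0.11). The sum of the 16 contigs of the ABHD12 component had 0.77 (edgeR adjusted p = 0.094), so the larger value is that of 1 contig. Many fatty acyl-CoA reductase and fatty acid synthase contigs were close to 0 in brain, where the fit gives a standard error above 1 or no usable one. Sugar metabolism had 5 of 7 positive (median 0.84) and vesicle traffic 6 of 11 (1.25), with Rab-32 its 1 contig past the threshold. The latter list holds 3 contigs named golgin subfamily A member 6-like protein that averaged no more than 0.913 CPM in old fat bodies.

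Coat protein coatomer subunit beta, which coats vesicles on the way from Golgi to endoplasmic reticulum, was the 1 named contig among the 6 called without the queen term whose age difference was larger in brain. It held 22.1, 28.1 and 152 CPM in the fat bodies of old queens against 17.5, 19.6 and 24.5 CPM in those of young queens, and 9.46, 11.7 and 13.6 CPM in the brains of old queens against 12.8, 56.2 and 83.7 CPM in those of young queens. Young brains split in 2: Y333, Y361 and Y594 lay at 12.8 to 13.5 CPM and the other 5 at 54.8 to 83.7 CPM. The age difference was 1.31 ± 0.4 (SE) in fat body and -1.99 ± 0.39 in brain, and their difference was 2.55 ± 0.57 with the queen as a block (edgeR adjusted p = 0.19) and 3.3 without it (adjusted p = 0.0085). Summed with the other contig of its component it was 0.24 (adjusted p = 0.58), so the value is that of 1 contig and not of the component. The other 5 had no description and were all higher with age in brain relative to fat body; one of them, TR75282c12_g1_i1, averaged 27.2 CPM in the brains of old queens against 2.94 CPM in those of young queens and 5.39 and 15.9 CPM in the fat bodies (-3.4, adjusted p = 0.51; 0.027 without the queen term).

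Neuronal signalling had 9 of 13 contigs negative with a median of -0.53; 3 of the 13 are TRPV channels, and survival motor neuron protein, YKT6 and neuroblastoma-amplified sequence are not specific to neurons. Complexin, which clamps synaptic vesicle fusion and was described from a hit in a stink bug, held 41.6, 104 and 150 CPM in the brains of old queens against 89.9, 137 and 198 CPM in those of young queens, and 0.405, 0.972 and 5.78 CPM in the fat bodies of old queens against 0.0849, 0.338 and 0.693 CPM in those of young queens. The 2 highest old fat bodies, O482 at 5.78 and O269 at 4.49 CPM, were those with the most counts of brain-enriched contigs. Its difference was 2.32 ± 0.55 (edgeR adjusted p = 0.24; 0.047 without the queen term), and 1.67 (adjusted p = 0.58) without O269, O482 and Y361. The share of brain-enriched contigs in fat bodies was 0.0174% ± 0.0264 (SD, n = 8) in old and 0.00726% ± 0.00196 in young queens (exact permutation test, two-sided p = 0.38). A channel named transient receptor potential cation channel subfamily V member 5 had -2.28 ± 0.51 (adjusted p = 0.19), with 0.206 to 4.09 CPM in the fat bodies of old queens against 3.82 to 10.7 CPM in those of young queens.

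Transferrin, an iron carrier that the fat body secretes, was its 1 tested marker. It held 976, 4762 and 8389.6 CPM in the fat bodies of old queens against 55.3, 258 and 2681 CPM in those of young queens. Brains held 138, 287 and 456 CPM in old queens and 114, 192 and 334 CPM in young ones. Young fat bodies overlapped with brains, old ones lay above all brains, and 6 of 8 old ratios exceeded the highest young ratio (3.21 ± 0.66, edgeR adjusted p = 0.12, and 0.17 without the queen term). Beta-1,3-glucan-binding protein-like, a receptor for fungal and bacterial cell walls, held 958, 2552 and 5230.3 CPM in the fat bodies of old queens against 459, 1055 and 1264 CPM in those of young queens (1.29 ± 0.33, adjusted p = 0.3). No contig described as vitellogenin or superoxide dismutase was among those tested. In whole tissues such as these, fewer cells of a type and less RNA per cell cannot be told apart.

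Markers of other cell types were summed per library. The 5 gut and Malpighian tubule contigs had medians of 941 CPM in the fat bodies of old queens against 262 CPM in those of young queens and 90.8 and 103 CPM in old and young brains. That sum was carried by 2 maltase 2-like contigs of 1 component, with means of 572 and 419.6 CPM for fat bodies of old queens against 85.9 and 108 CPM for those of young queens. V-type proton ATPase subunit C (6.11 against 13.2 CPM) and antichymotrypsin-2-like (7.09 against 12 CPM) ran the other way. The 1 haemocyte contig stood at 356 and 156 CPM in old and young fat bodies and 90.5 and 96.1 CPM in brains. The 1 venom contig stood at 174 and 86.2 CPM in old and young fat bodies and 4.46 and 4.45 CPM in brains. The 2 muscle contigs stood at 2.81 and 13.7 CPM in fat bodies and 4.49 and 10.9 CPM in brains. That sum was mostly tropomyosin-1, with means of 3.22 and 13.1 CPM in fat bodies and 5.13 and 9.27 CPM in brains. Troponin C ran the other way, at means of 0.334 and 0.235 CPM in fat bodies and 0.5 and 0.0328 CPM in brains. The 4 contigs of the photoreceptor list stood at 1.95 and 11.6 CPM in fat bodies and 2.08 and 3.01 CPM in brains. Of these, 3 are TRPV channels matched only on the words transient receptor potential. All young fat bodies (5.96 CPM or more) lay above all brains (3.65 CPM or less), so the sum is not read as a marker of photoreceptors. The 3 neuron contigs stood at 115 and 186 CPM in fat bodies and 242 and 303 CPM in brains. Fat body sums ranged from 312 to 2067 CPM in old and 167 to 654 CPM in young queens for gut, from 234 to 459 and 98 to 244 CPM for the haemocyte contig, and from 1.21 to 7.5 and 2.4 to 29.3 CPM for muscle. The neuron sum of fat bodies was mostly neuroligin-1-like, with means of 117 and 182 CPM there and 122 and 152 CPM in brains. Complexin (1.92 against 0.382 CPM) and the acetylcholine receptor subunit (0.0743 against 0.0186 CPM) ran the other way in fat bodies. No germline or tracheal marker was described. These sums differed with age in fat body at the median beside the contigs above, and their part in the results was not tested.

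Among genes tied to ageing, Krueppel homolog 1-like, the transcription factor that juvenile hormone induces, held 154, 173 and 226 CPM in the fat bodies of old queens against 243, 272 and 409 CPM in those of young queens. Brains held 78.2, 91.9 and 139 CPM in old queens and 99.3, 111 and 142 CPM in young ones. Both tissues were lower at the median in old queens, without overlap in fat body, and the difference between them was -0.47 ± 0.17 (edgeR adjusted p = 0.59). Peptide methionine sulfoxide reductase, a repair enzyme for methionine oxidised in proteins, had 2.6 ± 0.51 (adjusted p = 0.095), and the phospholipid hydroperoxide glutathione peroxidase -1.04 ± 0.29 (adjusted p = 0.41). The catalase contig, whose best hit is in a mite, had 0.51 and did not pass, at no more than 5 CPM in any library. Heat shock protein beta-1 had -1.21 ± 0.41 (adjusted p = 0.55), and the co-chaperone dnaJ homolog subfamily B member 6 had 2.88 ± 0.71 (adjusted p = 0.28) from 1.09 in fat body and -1.46 in brain. Summed over the 4 contigs of its component, the dnaJ difference was 0.68 (edgeR adjusted p = 0.21). The pheromone-binding protein Gp-9-like contig had log2 age differences of -3.01 ± 0.66 in fat body and -3.37 ± 1.02 in brain (difference 1.3 ± 1.04, adjusted p = 0.82).

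Cell cycle genes split evenly, 4 of 8 positive. Myb-like protein AA held 20.5, 46 and 142 CPM in the fat bodies of old queens against 2.87, 8.13 and 13.8 CPM in those of young queens, with brains of both ages between 4.27 and 13.9 CPM (2.61 ± 0.49, edgeR adjusted p = 0.073; 0.016 without the queen term). Centromere-associated protein E, a kinesin of chromosome alignment, had 1.22 ± 0.3 (adjusted p = 0.28; 0.035 without the queen term). The serine/threonine-protein kinase mos, which in vertebrates holds the egg in meiosis, had -0.92 ± 0.24 (adjusted p = 0.34; 0.041 without the queen term), chosen after its values were seen. The list's median was 0.26, and -0.093 with library totals. Detoxification had 7 of 20 positive (10 without the queen term; median -0.35), 4 of the 20 being phosphodiesterases or a methylesterase matched on their names, heat shock proteins and chaperones 4 of 9, antioxidants 3 of 6 and immunity 2 of 4, the last with a median of 0.4 that was -0.52 without the 100 most abundant contigs.

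The composition of the libraries also differed with age in 1 tissue more than in the other. The 100 most abundant contigs of a library made up 52.2% ± 3.85 (SD, n = 8) of an old fat body library and 42.4% ± 4.69 of a young one, but 19.7% ± 1.97 of an old brain library and 21.5% ± 1.38 of a young one. Per queen, the share in fat body minus that in brain was 24.3 to 37.3 percentage points in old and 14.9 to 29.4 in young queens, and 7 of 8 old queens lay above the highest young one. The mean difference between ages, 11.6 points, had a two-sided p of 0.0011 (exact permutation test over all splits of the queens; 0.0056 after Benjamini-Hochberg adjustment over 8 tests). It ran from 10.7 to 12.8 points without any 1 queen. Depth moved with age as well: log2 total counts in fat body minus brain averaged 0.274 in old and -0.174 in young queens (exact permutation p = 0.012, adjusted 0.024). On counts thinned to the smallest library the share difference was again 11.6 points. Thinning leaves the expected share of each contig unchanged, so this value cannot tell whether depth plays a part. Scaling by library totals in place of TMM moved the median of all contigs from 0.12 to -0.21, so the sign of a contig close to 0 depends on the scaling.

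**Figure D5:**
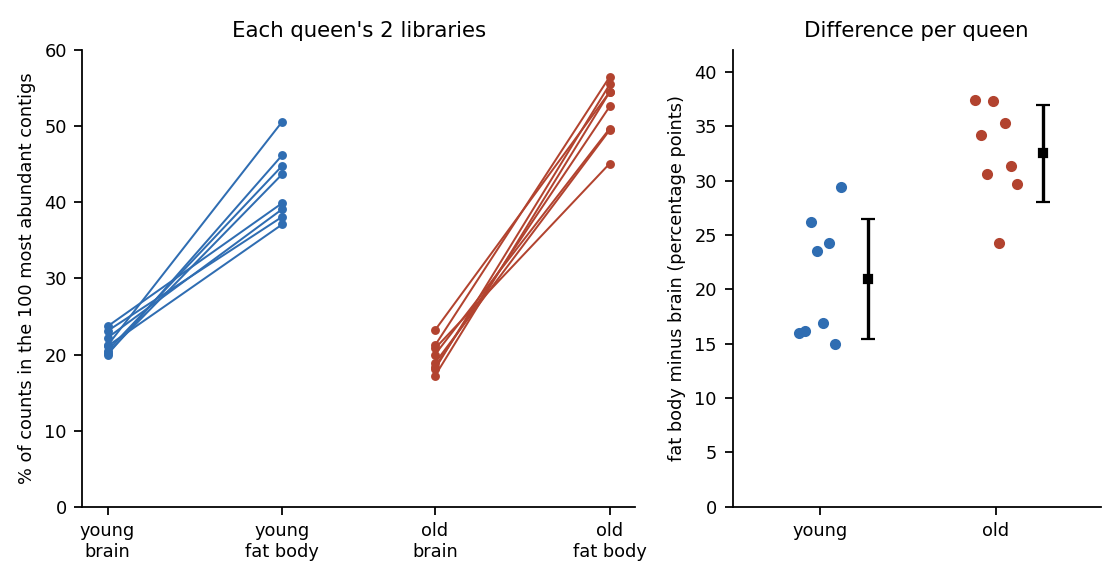
Percentage of counts in the 100 most abundant contigs: on the left each queen's brain and fat body joined by a line, on the right the difference per queen in percentage points with the mean and SD of 8 queens per age (black). Old queens lie at 24.3 to 37.3 points and young queens at 14.9 to 29.4.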

How the data were processed

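The authors deposited whole-number read counts per contig for 228763 contigs, unscaled per the file headers; 3263 contigs had no count. RSEM 1.3.0, Bowtie2, Bowtie, DESeq2 1.2.10, Trimmomatic 0.36 and FastQC 0.11.5 stand in the submitters' processing notes without their roles, so the counts may be rounded estimates of reads shared between similar contigs. Per the labels, young brain 134 was joined from 2 lanes. The assembler and the strandedness are not given in the sources used here. Contigs of the authors' deposited age tables (1597 for fat body and 169 for brain), which also hold their log2 fold changes, signal, score and p-value columns, gave the protein descriptions only.

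Contigs were tested with the quasi-likelihood method of edgeR 4.0.16 (R 4.3.3) on the deposited counts over all 32 libraries, with 1 term per queen, tissue and the age-by-tissue term (14 residual degrees of freedom). Contigs were kept by filterByExpr (minimum count 10, total 15), scaled by TMM, and adjusted by Benjamini-Hochberg with a threshold of 0.05. Age within a tissue was fitted on its 16 libraries, so the difference between tissues is not exactly the difference of the within-tissue values. Ratios per queen use log2 CPM with a prior count of 2. Each edgeR standard error is the absolute log2 difference divided by the square root of the F statistic of its test. It is not a separately fitted error and has little meaning where F is near 0. Alternatives used DESeq2 1.42.0 and limma 3.58.1. The script was tested on simulated data.

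Deviations from the group means of a queen's brain and fat body correlated over contigs with r between 0.33 and 0.4, where other queens of the same age reached -0.00052, and 16 of 16 brains matched their own fat body best. Taking deviations from group means by itself lowers the values of other queens when a queen's own value is positive. The labels give both libraries of a number to 1 individual. No 2 libraries were duplicates. The members and gene lists were chosen with earlier results of these data known. The rule for naming took, per direction, up to 12 named contigs that pass or else the 5 with the smallest p. It added the 2 with the smallest p of each list with 3 or more tested contigs, and the 2 without a protein name per direction. All of these stood at 1 CPM or more in a group. Transferrin, catalase, Krueppel homolog 1 and complexin entered whatever their test. Some contigs that the rule selects are not described above. The depth gives the counts at high levels a small counting error. Many differences near 0 CPM, but not all, had standard errors above 1 on the log2 scale. No other per-sample columns were left out. Sequences of contigs were not used here.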

Additional observations from a re-analysis of the deposited data

Results flagged for a closer look

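Both contigs that passed the test of the difference between tissues are listed first. LOC108756522 had a difference of 2.55 between the age difference in fat body and that in brain, and Rab-32 had -2.09 (edgeR quasi-likelihood test, adjusted p under 0.05).

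In 98 groups of 8 per-queen log2 ratios of fat body to brain, 7 (7.14%) held a queen far from the other 7; chance flags about 1 in 20 groups. Semaphorin-5B had a ratio of 1.03 in young queen Y361, where the other young queens had 3.54 to 4.38. Its level was 25.6 to 36.1 CPM over all young brains and 58.8 CPM in the lowest young fat body. Peptide methionine sulfoxide reductase had 4.66 in old queen O469, where the others had 1.3 to 2.63. Old queen O469 also had -2.82 for transient receptor potential cation channel subfamily V member 5, against -0.44 to 1.51 in the others. ABHD12 had -3.39 in young queen Y594 and -0.046 to 1.85 in the others. The 28S ribosomal protein S29 contig had -0.38 in old queen O603, against 0.21 to 0.51, and 0.36 in young queen Y453, against 0.77 to 1.07. Pheromone-binding protein Gp-9-like had 2.23 in old queen O796 and 5.34 to 7.77 in the other old queens.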

How the results depend on the processing

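The number of contigs called depended on the fit far more than the values did. With the queen as a block edgeR called 2. The fit with no replicate block called 109; the pairing of tissues by queen is given by the labels. DESeq2 called 1105 with the block and 917 without it, limma-voom 78 and 76, limma-trend on the ratio per queen 114, and the newer dispersion method of edgeR 61. Without the count filter 1149 of 225500 contigs passed, with 1 CPM or more in each tissue 43, on thinned counts 15, on component sums 93, and with TMM within each tissue 1. Leaving out 1 queen gave 1 to 36 calls with the block and 47 to 114 without it. Age in fat body gave 84 calls on its own libraries and 2135 in 1 fit over the 4 groups. Median-of-ratios scaling gave 3 calls, and library totals, removal of the 100 most abundant contigs and removal of O269, O482 and Y361 gave 2 each. The cause of these differences was not tested. Among the values of the named contigs under the alternatives, 1277 kept their direction and side of the threshold, 258 passed where they had not, 16 no longer passed, and 9 changed sign. The 9 are all of catalase, which stood at 0.51: -1.37 with no replicate block, -1.58 in DESeq2 with none, -0.17 in limma-voom, -0.34 with the newer edgeR method, -0.97 on component sums, and -0.24 to 1.27 without 1 queen, below 0 without O426, O469, O829 or Y503. The share of the 100 most abundant contigs kept its difference with 10 contigs (12.8 points), 1000 contigs (6.6 points) and component sums (10.9 points). The newer edgeR method, limma-voom without the block, the fits without 3 queens, age in 1 fit over 4 groups and the fits without 1 queen that carry no queen term were added after seeing the data.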
